A study of Homo sapiens with 18 samples.

Results

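The 41 genes described here encode WNT ligands, their receptors and their antagonists, with the pathway's own feedback target AXIN2 and the formin-family gene DAAM2. They were taken as a fixed list of symbols from 58051 genes in the count tables, and each of the 41 matched an Ensembl gene ID. The list holds 17 WNT ligands, the 10 Frizzled (FZD) receptors, the 2 LRP co-receptors LRP5 and LRP6, 10 secreted antagonists (DKK1 to DKK4, SFRP1, SFRP2, SFRP4, SFRP5, WIF1 and FRZB) and the 2 intracellular genes. Expression was measured by poly(A) RNA sequencing in NCI-H460, an adherent epithelial line from a large cell lung cancer, labelled wild type in all groups.

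WNT proteins are secreted, lipid-modified ligands that bind Frizzled receptors. With LRP5 or LRP6 as co-receptor, a ligand blocks the destruction complex that degrades beta-catenin, which then enters the nucleus and switches on targets with TCF and LEF factors, AXIN2 among them; ligands such as WNT5A and WNT11 are best known for signals through Frizzled without beta-catenin. SFRP proteins, FRZB and WIF1 bind the ligands outside the cell and DKK proteins bind the LRP co-receptors, and the promoters of many of these antagonists are known to be methylated in lung and other cancers. Decitabine is a cytidine analogue that traps DNA methyltransferases and so lowers DNA methylation, and all-trans retinoic acid (ATRA) activates the retinoic acid receptors.

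The 18 libraries formed 6 groups of 3 biological replicates. They were the population labelled resistant #1, here R1, treated with ATRA plus decitabine or given DMSO, the population labelled resistant #2, here R2, treated or given DMSO, and the parental cells treated or given DMSO. The populations were resistant to decitabine and ATRA per the series' design text; how each was derived, and whether it is a clone, is not given in the sources used here. Treated wells received 2 µM ATRA and decitabine labelled as 50 µM at 24 hours after seeding, control wells received DMSO (0.7% by volume), and all wells were lysed at 72 hours, after 48 hours of exposure. Growth medium was RPMI-1640 with 10% fetal bovine serum. Each population was sampled as 3 replicates of the same cells, so the p-values measure the spread between these cultures and not the spread between independently derived resistant populations.

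The DMSO libraries held 116.9 to 140.9 M reads assigned to genes, and the treated libraries held 109.3 to 174.5 M reads over the genes that could be restored. The DMSO table gives counts divided by a size factor per library, referred to here as normalized counts, and multiplying back gave whole reads, within 0.01, for 100% of the values. The treated table had lost its decimal points on deposit. A model guided by the DMSO levels placed them. Each gene's values were restored only where a single placement had a posterior probability of at least 99%. By that rule 28 of the 41 members were restored in all treated groups and 13 were not (38 were restored in treated parental cells, 36 in treated R1 cells and 33 in treated R2 cells). Treated values are given only for the groups in which a member was restored. In the DMSO libraries the epithelial markers were uneven. The keratins were high in all groups, whereas EPCAM averaged 3.9 ± 1.89, 3.88 ± 0.605 and 93.5 ± 8.84 normalized counts in R1, R2 and parental cells (SD, n = 3 each).

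With DMSO alone, both resistant populations differed from the parental cells in most of the members tested, and in different ways. The shares were 75% of members in R1 and 84.4% in R2, beside 55.9% and 61.9% of all genes. These member shares include SFRP1 and WIF1, which could be tested through R2 libraries alone. They also include WNT7A and FRZB, which could be tested through R1 and R2 libraries alone. R1 had more WNT7B (129-fold in mean CPM, n = 3 each, CPM being reads scaled to a common size by library totals adjusted with the TMM method), DKK1 (18.1-fold), WNT9A, FZD2, FZD8 and DKK3 RNA and less FZD5, FZD10, WNT3, WNT10B, AXIN2 and DAAM2. R2 had far more WNT4 (333-fold), DAAM2 (118-fold) and DKK3, more WNT5A, WNT5B and AXIN2, and less WNT10B, WNT8B and FZD5. In parental cells ATRA plus decitabine raised the antagonists DKK1 (7.71-fold), SFRP4 and FRZB, the ligands WNT7B (82-fold), WNT9A and WNT11, and AXIN2, while FZD4 and FZD6 fell.

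**Figure D1:**
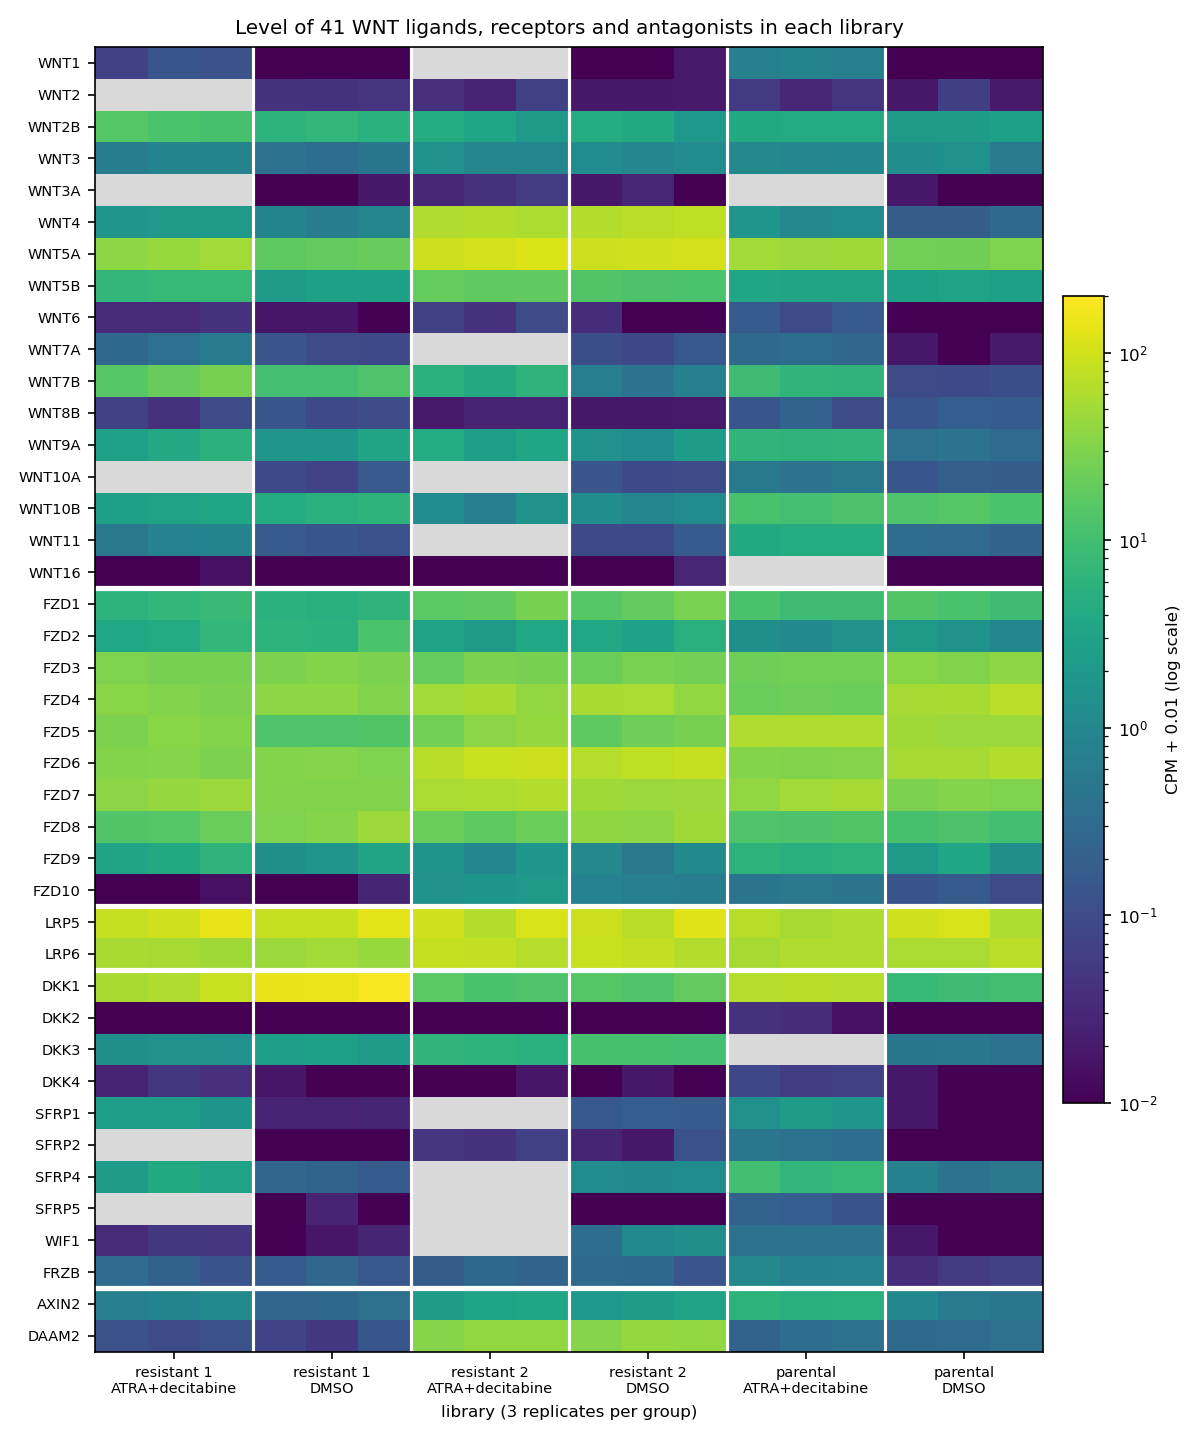
Expression of the 41 members in each of the 18 libraries, as CPM plus 0.01 on a log colour scale, with genes grouped by role and grey cells where the treated values could not be restored. WNT4 and DAAM2 stand out in the 6 libraries of R2, DKK1 in the 3 DMSO libraries of R1 and WNT7B in the 6 libraries of R1. SFRP1, SFRP4, WIF1 and FRZB are higher in the 3 treated than in the 3 DMSO parental libraries.

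At the DMSO level 32 members passed the minimum of 10 normalized counts in at least 3 of 9 libraries. The others were WNT1, WNT2, WNT3A, WNT6, WNT16, DKK2, DKK4, SFRP2 and SFRP5, with 0 to 11 reads in any DMSO library. Between R1 and parental cells 11 of the 32 were higher and 13 lower (limma on log2(normalized count + 1), Benjamini-Hochberg adjusted p under 0.05 over all genes tested), against 29.3% of all genes higher and 26.6% lower (55.9% called). The median log2 difference was -0.14 for the members and 0.01 for all genes. Between R2 and parental cells 21 were higher and 6 lower against 32.1% of all genes higher and 29.8% lower (61.9% called), with medians of 0.98 and 0.02. Between R1 and R2 cells 7 were higher and 17 lower against 27.4% of all genes higher and 26% lower (53.4% called), with medians of -0.57 and 0.02. SFRP1 and WIF1 passed the minimum through R2 libraries alone, so they had to differ in R2. Without them 10 of 30 were higher and 13 lower in R1 than in parental cells, 19 were higher and 6 lower in R2 than in parental cells, and 7 were higher and 15 lower in R1 than in R2, with medians of -0.30, 0.83 and -0.40. Of those 30, WNT7A and FRZB reached the minimum without a parental library, FZD10 without an R1 library and WNT8B without an R2 library. For these genes the minimum favoured a lower level in the population left out. The first 2 comparisons share the 3 parental libraries. In RNA from whole cultures, fewer cells of a type and less RNA per cell cannot be told apart.

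**Figure D2:**
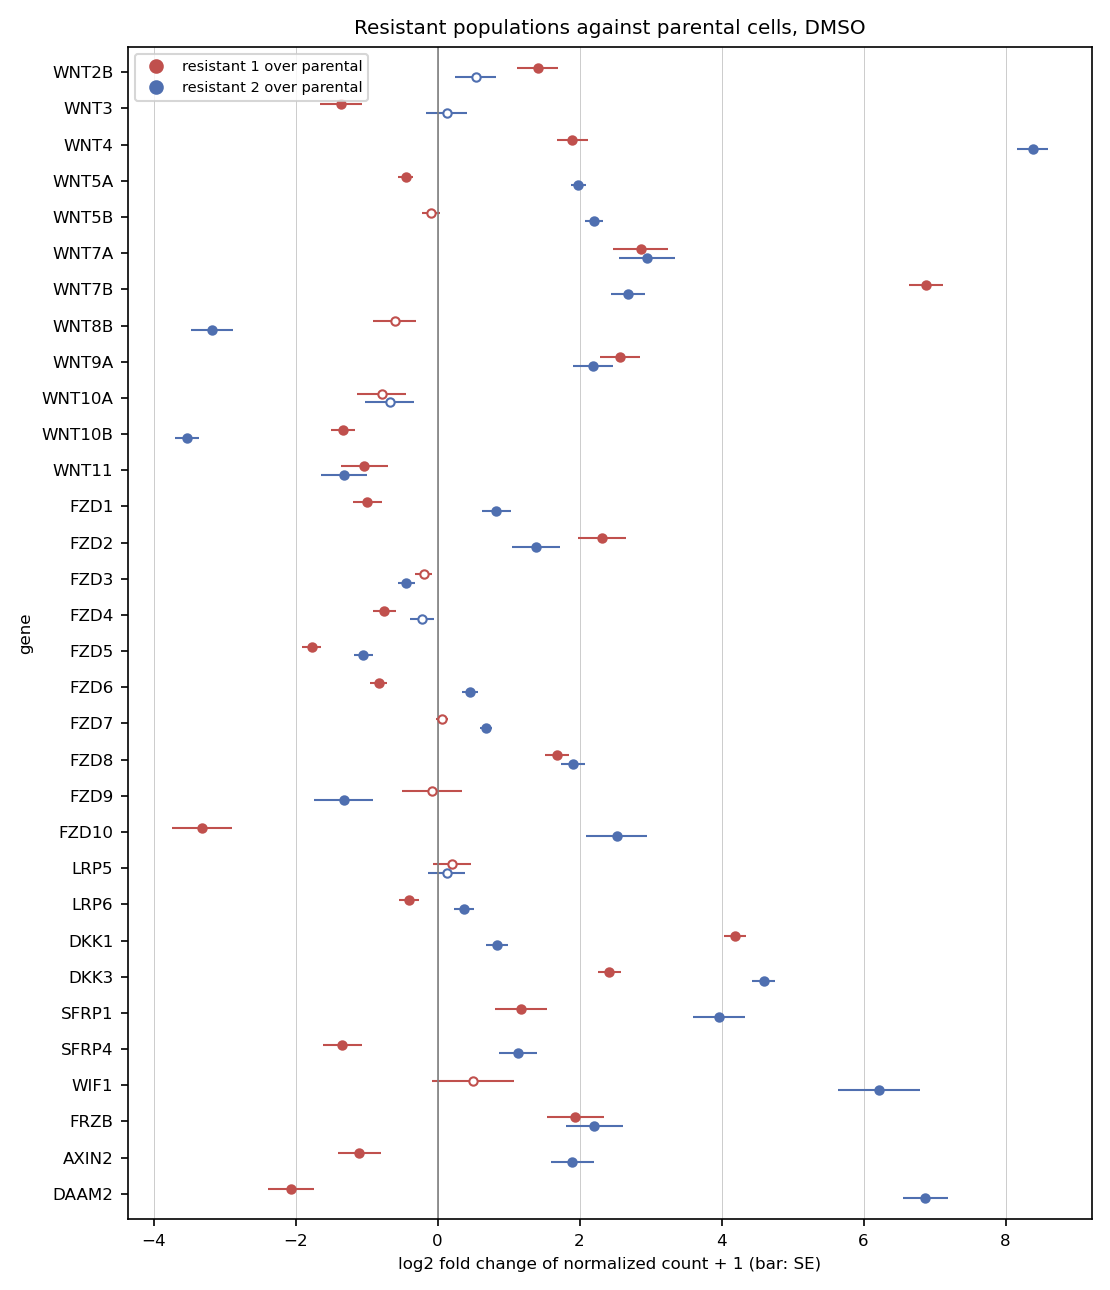
Log2 difference of each of the 32 tested members with DMSO, R1 minus parental and R2 minus parental, with standard errors from limma; filled points have an adjusted p under 0.05. The antagonists lie at or above 0 in both comparisons apart from SFRP4 in R1, and WNT4 (8.38) and DAAM2 (6.87) are farthest to the right for R2 and WNT7B (6.88) for R1. SFRP1 and WIF1 (6.22 for R2) are shown although they passed the minimum through R2 alone. WNT7A and FRZB passed it without a parental library.

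Among the ligands tested with DMSO, 5 of 12 were higher and 4 lower in R1 than in parental cells (29.3% and 26.6% of all genes), and 6 were higher and 3 lower in R2 (32.1% and 29.8% of all genes). WNT7A, among these 12, reached the minimum without a parental library. WNT4, a ligand known from kidney tubule and female reproductive tract development, showed the widest range. Its normalized counts were 95.5, 70 and 100.4 in the R1 libraries, 7135, 8212 and 8569 in the R2 libraries and 19.7, 19.2 and 31.4 in the parental libraries. The 3 groups did not overlap, and R2 stood far above both. Mean CPM was 333-fold higher in R2 than in parental cells, a log2 difference of 8.38 ± 0.22 (SE, adjusted p = 2.1e-10), and 3.76-fold higher in R1, a log2 difference of 1.90 ± 0.22 (SE, adjusted p = 2.4e-05).

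WNT4 lies at chr1:22117305-22143969 on the minus strand (GRCh38, GENCODE v29). The 250 bases before its RefSeq start, chr1:22143098-22143347 on the minus strand of GRCh38.p14, hold 40 CpG dinucleotides, the letters CG, which read the same on both strands. They are printed because CpG is the dinucleotide that DNA methyltransferases act on and WNT4 is the ligand that differed most between populations; the capitals mark each CpG.
WNT4: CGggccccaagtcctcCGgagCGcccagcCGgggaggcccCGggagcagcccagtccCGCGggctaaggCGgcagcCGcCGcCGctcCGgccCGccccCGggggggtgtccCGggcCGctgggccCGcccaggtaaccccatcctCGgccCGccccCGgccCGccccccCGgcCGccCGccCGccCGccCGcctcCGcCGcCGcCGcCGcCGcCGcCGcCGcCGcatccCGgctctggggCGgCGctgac
RefSeq promoters were found for 27 of the 41 members, 31 promoters in all, and 22 of the 31 (71.0%) were rich in CpG, meaning a GC content above 55% and an observed-to-expected CpG ratio above 0.65, against 39.6% of 35116 promoters of the same length. The median was 23 CpG per promoter among members and 11 over all promoters. DNA methylation itself was not analysed here.

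WNT7B, a ligand needed for lung branching and vascular development, was the ligand with the largest difference in R1. Normalized counts were 1172, 1158 and 1477 in R1, 76, 49 and 83.6 in R2 and 9.85, 8.62 and 10.8 in parental libraries. All 3 groups were separate, with R1 highest and parental lowest. The log2 difference from parental cells was 6.88 ± 0.23 (SE, adjusted p = 1.7e-09) in R1 and 2.68 ± 0.23 (SE, adjusted p = 2.0e-06) in R2, and between R1 and R2 it was 4.20 ± 0.23 (SE, adjusted p = 8.9e-08).

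WNT9A and WNT7A were higher in both resistant populations. WNT9A, a ligand of joint development, had 198, 212 and 355 normalized counts in R1, 181, 143 and 262 in R2 and 42.3, 46 and 34.6 in parental libraries. Each resistant library exceeded each parental one, with log2 differences of 2.57 ± 0.28 (SE, adjusted p = 1.7e-05) in R1 and 2.19 ± 0.28 (SE, adjusted p = 4.3e-05) in R2, while the resistant groups overlapped. WNT7A, which patterns limbs and the female reproductive tract, was near the detection limit in parental cells, with 36 reads in R1, 33 in R2 and 2 in parental cells over 3 libraries each. The CPM ratios were 16.2 for R1 (95% exact counting interval 4.17 to 138.8) and 17.0 for R2 (4.35 to 146.1) over parental cells, and such intervals cover counting error only. No parental DMSO library reached the minimum for WNT7A, so the minimum favoured a higher resistant level.

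WNT5A and WNT5B, close paralogues that mostly signal without beta-catenin, were both higher in R2. WNT5A had 1941, 2103 and 2206 normalized counts in R1, 10594, 11243 and 11961 in R2 and 2668, 2612 and 3293 in parental libraries. R2 was above the parental libraries, at 1.98 ± 0.11 (SE, adjusted p = 5.5e-08), and R1 was slightly below them, at -0.45 ± 0.11 (SE, adjusted p = 0.00463), without overlap in either case. WNT5B had 269, 309 and 302 in R1, 1539.6, 1439 and 1345 in R2 and 310.2, 326 and 302 in parental libraries. Here R1 and parental cells overlapped (log2 difference -0.09 ± 0.12 SE, adjusted p = 0.555), and R2 was higher by 2.20 ± 0.12 (SE, adjusted p = 6.6e-08).

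WNT10B, WNT3, WNT8B and WNT11 were lower in 1 or both resistant populations. WNT10B, a ligand that acts through beta-catenin in bone and fat, had 487, 610.4 and 675 normalized counts in R1, 146, 107 and 130.3 in R2 and 1465, 1616 and 1341 in parental libraries. The groups were separate, R2 lowest and parental cells highest, with log2 differences from parental cells of -1.33 ± 0.17 (SE, adjusted p = 5.3e-05) in R1 and -3.53 ± 0.17 (SE, adjusted p = 2.0e-08) in R2. WNT3, a beta-catenin ligand of the early embryo, had 43.4, 39.1 and 50.2 in R1, 134, 111 and 132 in R2 and 141, 156 and 68.2 in parental libraries. Parental replicate 3 was low for WNT3, yet all R1 libraries lay below it and the log2 difference was -1.36 ± 0.29 (SE, adjusted p = 0.00227); R2 overlapped the parental range (log2 difference 0.13 ± 0.29 SE, adjusted p = 0.731).

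WNT8B had 14.8, 9.1 and 10.6 normalized counts in R1, 1.03, 1.07 and 1.09 in R2 and 14.8, 20.1 and 18.4 in parental libraries. Only 3 reads were counted in R2 against 53 in parental cells, a level 17.2-fold lower (95% counting interval 5.56 to 85.9) with an adjusted p of 4.0e-06, while R1 did not pass the test (adjusted p = 0.114). WNT11 had 17.4, 14.6 and 12.6 in R1, 9.24, 9.59 and 18.5 in R2 and 37.4, 33.5 and 23.8 in parental libraries. Both resistant groups were below all parental libraries, with log2 differences of -1.03 ± 0.32 (SE, adjusted p = 0.019) and -1.32 ± 0.32 (SE, adjusted p = 0.00428) in R1 and R2. The call in R1 was lost without R1 DMSO replicate 3, parental DMSO replicate 1 or parental DMSO replicate 2 (adjusted p = 0.0615, 0.0696 and 0.0580), and 8.50% of WNT11 exon bases overlap the opposite-strand gene AP000785.1.

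WNT2B had 683, 794 and 612 normalized counts in R1, 528, 464 and 219 in R2 and 223, 254 and 312 in parental libraries. R1 lay above both other groups, whose ranges overlapped, R2 replicate 3 being low. The difference from parental cells was 1.41 ± 0.29 (SE, adjusted p = 0.00157) on the log2 scale in R1 and did not pass in R2 (0.53 ± 0.29 SE, adjusted p = 0.129). The call between R1 and R2 (adjusted p = 0.0245) was lost without R1 DMSO replicate 1 or 2 (adjusted p = 0.0593 and 0.0848), and 21.2% of its exon bases overlap ST7L on the opposite strand; the strand setting of the counting is not given in the sources used here. WNT10A had 8.68, 7.28 and 16.4 in R1, 14.4, 9.59 and 9.77 in R2 and 14.8, 21.1 and 19.5 in parental libraries, and neither difference passed (adjusted p = 0.0736 and 0.111 for R1 and R2).

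Per kilobase of exon, the ligand RNA of the populations had a different make-up. In R1 with DMSO, WNT5A, WNT7B and WNT10B were highest, at 2.52 ± 0.17, 2.25 ± 0.34 and 2.01 ± 0.33 CPM per kilobase (SD, n = 3), and neighbours in that order differed by less than their summed SDs. In R2, WNT4 at 15.5 ± 1.5 and WNT5A at 13.4 ± 0.92 were far above WNT5B at 2.95 ± 0.18. In parental cells WNT10B at 5.05 ± 0.5 and WNT5A at 3.48 ± 0.45 led, and the next, WNT5B, was at 0.654 ± 0.029. The 17 ligands summed to 8.88 CPM per kilobase in R1, 33.5 in R2 and 10.0 in parental cells.

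**Figure D3:**
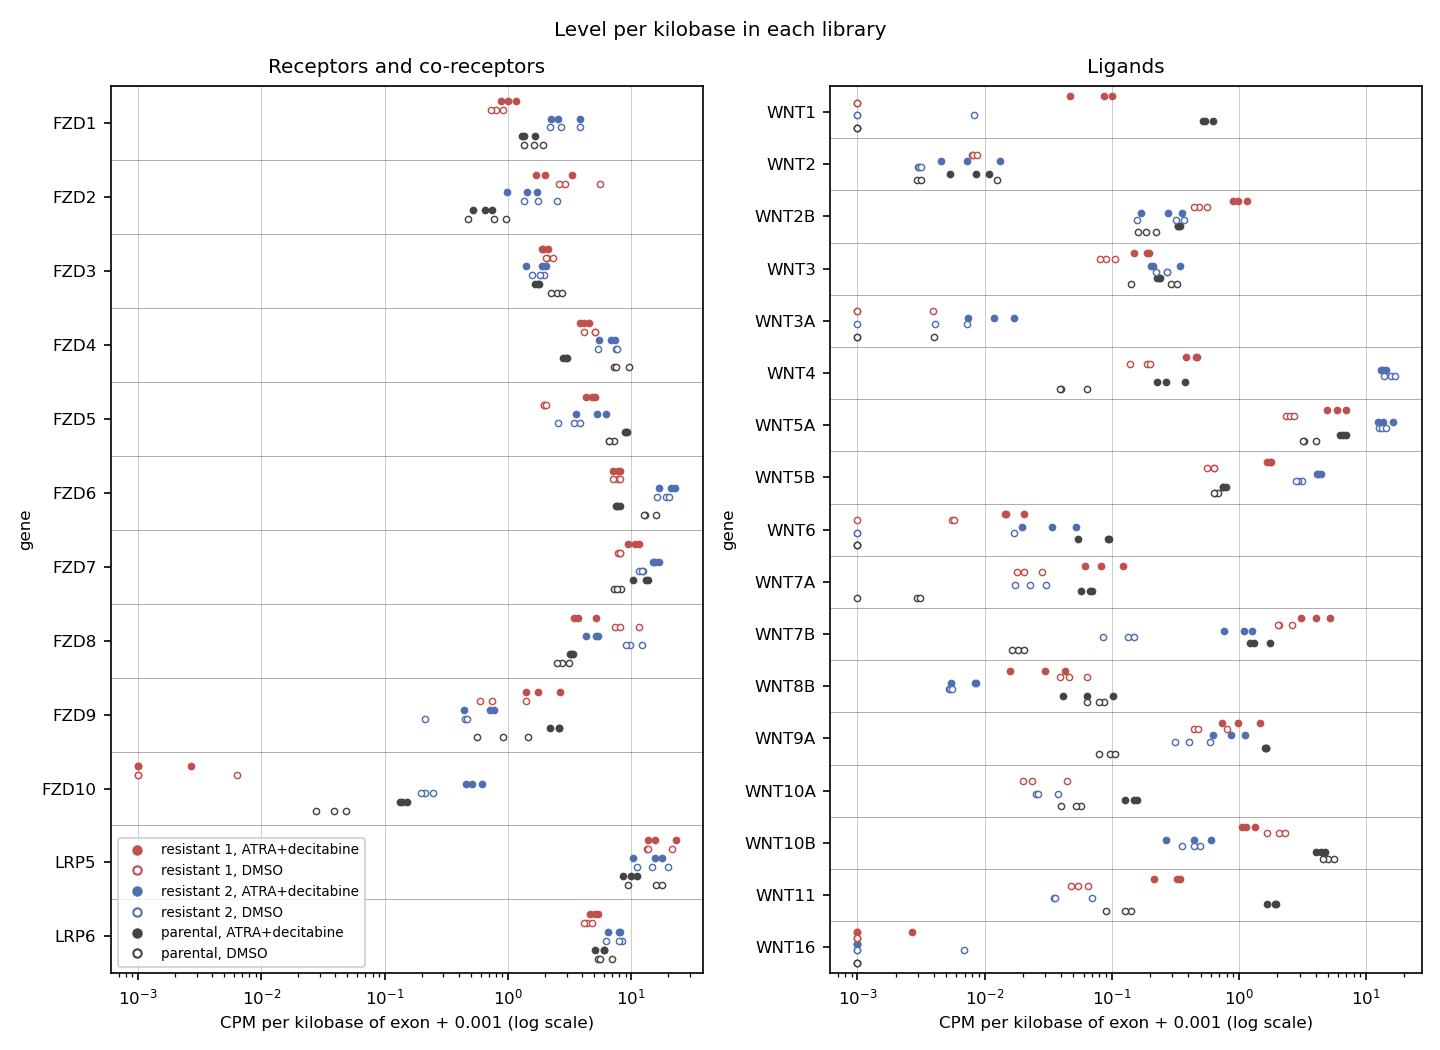
Levels per kilobase of exon (CPM per kilobase plus 0.001, log axis) of the receptors, co-receptors and ligands in the 6 groups, each point being a single library. By group mean, WNT4 lies above all other ligands in R2 with DMSO (15.5), WNT10B leads in parental cells with DMSO (5.05), and LRP5 is among the highest surface genes in each group.

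ATRA plus decitabine was compared with DMSO inside each population on log2(CPM + 1) of the recovered reads, since the 2 tables had been normalized separately, a scale that understates the change of genes far below 1 CPM. Of 26 members tested in all 3 populations, 10 rose and 3 fell in R1 against 14.6% of all genes higher and 12.8% lower (27.4% called). In R2 6 rose and 1 fell against 10.8% of all genes higher and 7.47% lower (18.3% called). In parental cells 13 rose and 3 fell against 32.1% of all genes higher and 33.2% lower (65.3% called). The 13 include WNT6, which reached the read minimum mainly through treated parental libraries, so its rise there was built in. Member medians were 0.14, 0.00 and 0.20 in R1, R2 and parental cells, and all-gene medians 0.00, 0.00 and -0.01; with WNT6, at 0 reads in parental DMSO cells, set at its lower bound the parental median was 0.19. A fit on the parental libraries alone, chosen after the restoration had been seen, brought in further members and called 22 of 35 higher and 3 lower against 39.2% of all genes higher and 30.5% lower (69.7% called), with medians of 0.38 and 0.03. WNT1, WNT6, WNT7A, SFRP1, SFRP2, SFRP5, WIF1 and FRZB, 8 of those 35, reached the read minimum through treated libraries alone and so had to differ; of the other 27, 14 were higher and 3 lower, with a median of 0.35. The same kind of fit called 14 of 29 higher and 4 lower in R1 against 18.7% of all genes higher and 14.7% lower (33.5% called), or 13 of 28 higher without SFRP1, which passed there through treated libraries alone, and 4 of 25 higher and 2 lower in R2 against 6.76% of all genes higher and 3.14% lower (9.9% called).

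In R1 and R2 the treated and DMSO libraries with the same replicate number deviated together, and with the replicate number as a block 17 members were called in R1 (13 without it), 8 in R2 (7 without it) and 19 in parental cells (16 without it). With that block 43.2%, 32.2% and 73.9% of all genes were called in R1, R2 and parental cells, so the parental count of 19 of 26 lay at the share of all genes. FZD1, FZD2, LRP6 and WNT3 were added in R1, AXIN2 in R2 and LRP5, FZD8 and WNT5B in parental cells. All member calls made without the block stayed. The responses and single-library checks given below are from fits without it unless stated. Across all genes the calls went up to 8583 (5433 without the block) in R1, to 6387 (3637 without it) in R2 and to 14673 in parental cells.

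**Figure D4:**
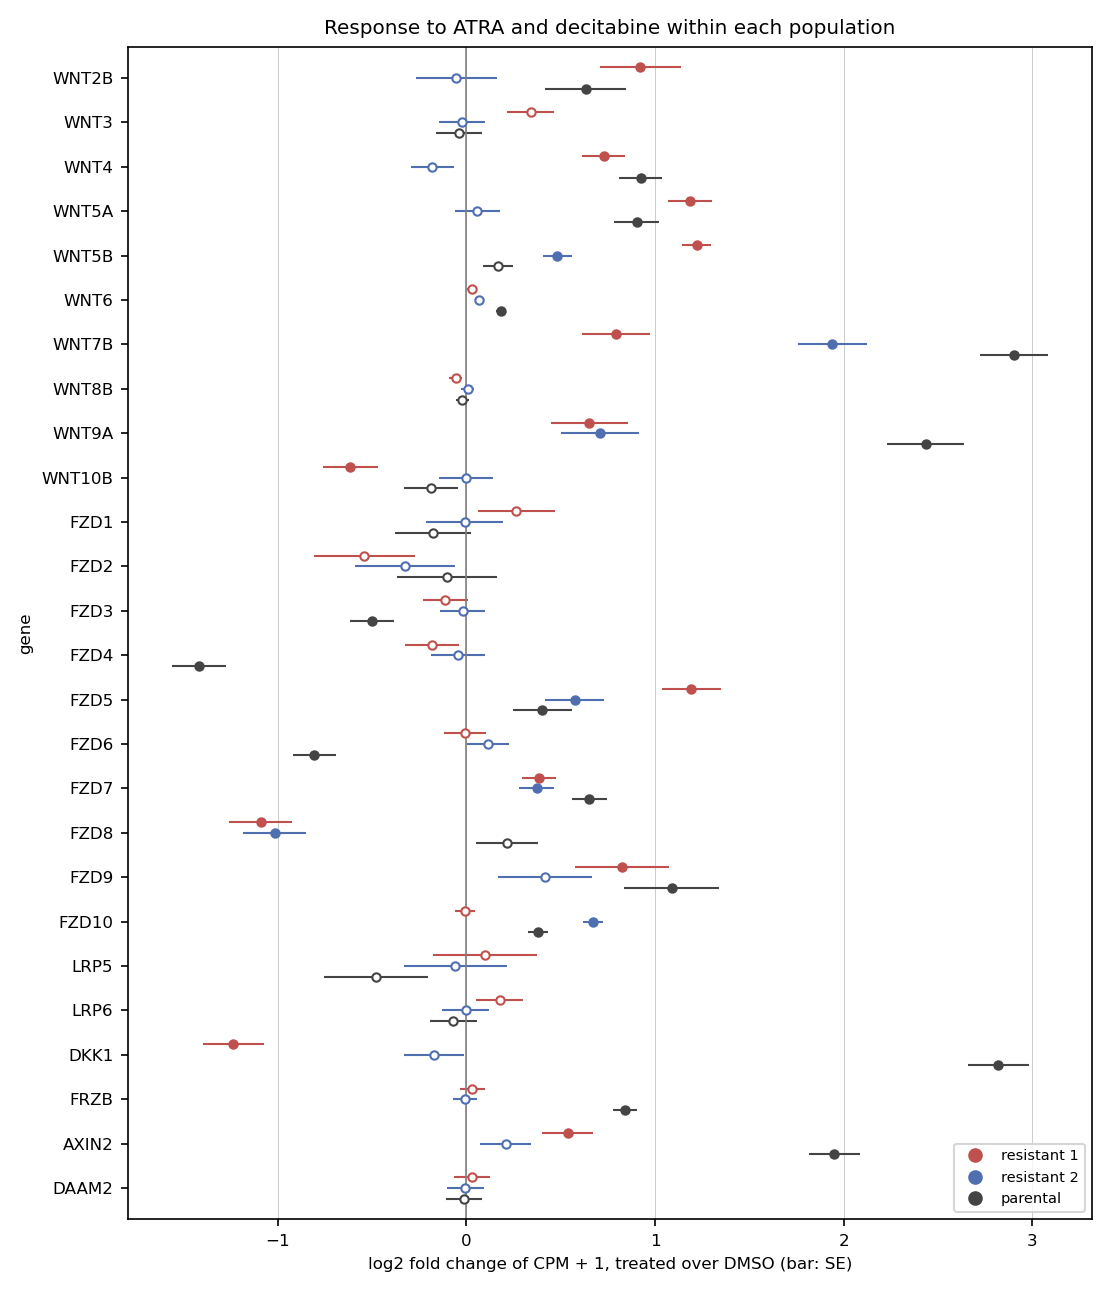
Log2 change in CPM + 1 with ATRA plus decitabine against DMSO for the 26 members tested in R1, R2 and parental cells, with standard errors from limma; filled points have an adjusted p under 0.05. DKK1 lies at -1.24 in R1, -0.17 in R2 and 2.82 in parental cells, and WNT7B and WNT9A rise in all 3 populations, most in parental cells.

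WNT7B rose in every population with ATRA plus decitabine. Its CPM was 15.4, 20.4 and 26.3 treated and 10.5, 10.3 and 13.3 with DMSO in R1, where the groups did not overlap. In R2 it was 5.55, 3.87 and 6.36 treated and 0.669, 0.427 and 0.745 with DMSO, and in parental cells 8.78, 6.63 and 6.21 treated and 0.0882, 0.0782 and 0.0974 with DMSO. Parental cells showed the widest gap, 82-fold in mean CPM against 8.57-fold in R2 and 1.83-fold in R1. The log2 changes were 0.79 ± 0.18 (SE, adjusted p = 0.00391) in R1, 1.94 ± 0.18 (SE, adjusted p = 1.8e-06) in R2 and 2.90 ± 0.18 (SE, adjusted p = 6.3e-10) in parental cells. Tested directly, the response was smaller than the parental one by 2.11 ± 0.26 in R1 (difference -2.11, adjusted p = 6.0e-06) and by 0.96 ± 0.26 in R2 (difference -0.96, adjusted p = 0.00521).

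WNT9A rose in the same 3 populations. WNT9A CPM was 2.9, 3.88 and 5.82 treated and 1.77, 1.88 and 3.2 with DMSO in R1, and 4.44, 2.49 and 3.44 treated and 1.59, 1.24 and 2.33 with DMSO in R2. Parental WNT9A CPM was 6.42, 6.36 and 6.42 treated and 0.379, 0.417 and 0.312 with DMSO. Treated and DMSO libraries overlapped in R1 and were separate in the other populations. The log2 change was 2.43 ± 0.21 (SE, adjusted p = 2.5e-08) in parental cells, 17.3-fold in mean CPM, against 0.65 ± 0.21 (SE, adjusted p = 0.027) in R1 and 0.71 ± 0.21 (SE, adjusted p = 0.0234) in R2. Neither resistant call held without single libraries, since the adjusted p rose to 0.0617 to 0.139 without R1 treated replicate 2 or 3 or DMSO replicate 1 or 2, and to 0.0610 to 0.113 without R2 treated replicate 1 or 3 or DMSO replicate 1 or 2. Those fits did not pair libraries by replicate number, and with it as a block both calls stayed. The response was smaller than the parental one, with differences of -1.78 ± 0.29 (SE, adjusted p = 1.1e-04) in R1 and -1.73 ± 0.29 (SE, adjusted p = 1.2e-04) in R2.

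WNT5A and WNT4 rose in R1 and parental cells. WNT5A had 36.6, 44 and 51.2 CPM treated and 17.3, 18.6 and 19.9 CPM with DMSO in R1, and 92.3, 99.91 and 119 treated and 93.3, 97.9 and 107 with DMSO in R2. Parental WNT5A CPM was 51.4, 46.1 and 48.9 treated and 23.9, 23.7 and 29.6 with DMSO. The treated and DMSO libraries were separate in R1 and parental cells and overlapped in R2, where the starting level was the highest. The log2 changes were 1.18 ± 0.12 (SE, adjusted p = 1.7e-06) in R1, 0.06 ± 0.12 (SE, adjusted p = 0.852) in R2 and 0.90 ± 0.12 (SE, adjusted p = 4.3e-06) in parental cells. WNT4 had 1.72, 2.11 and 2.08 CPM treated and 0.853, 0.62 and 0.905 with DMSO in R1, and 60.8, 64.4 and 59.7 treated and 62.8, 71.5 and 76.4 with DMSO in R2. Parental WNT4 CPM was 1.71, 1.03 and 1.2 treated and 0.176, 0.174 and 0.282 with DMSO. It rose 2.48-fold in R1 (adjusted p = 1.7e-04) and 6.23-fold in parental cells (adjusted p = 2.2e-06), with no overlap, and its change in R2 did not pass (log2 change -0.18 ± 0.11, SE).

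WNT5B and WNT2B moved most in R1. WNT5B CPM was 7.12, 7.67 and 7.51 treated and 2.4, 2.74 and 2.72 with DMSO in R1, and 18.9, 17.5 and 17.9 treated and 13.6, 12.5 and 12 with DMSO in R2. Parental WNT5B CPM was 3.42, 3.22 and 3.21 treated and 2.78, 2.96 and 2.72 with DMSO. No treated library overlapped its DMSO group, and the log2 change passed in R1 (1.22 ± 0.08 SE, adjusted p = 1.1e-08) and R2 (0.48 ± 0.08 SE, adjusted p = 3.7e-04) and missed the threshold in parental cells (0.17 ± 0.08 SE, adjusted p = 0.0725). The R1 response exceeded the parental one by 1.05 ± 0.11 (SE, adjusted p = 1.1e-06). WNT2B had 14.5, 12.3 and 11.3 CPM treated and 6.1, 7.03 and 5.51 with DMSO in R1, and 4.47, 3.43 and 2.1 treated and 4.65, 4.04 and 1.96 with DMSO in R2. Parental WNT2B CPM was 4.12, 4.28 and 4.17 treated and 1.99, 2.3 and 2.8 with DMSO. It rose in R1 (log2 change 0.92 ± 0.22 SE, adjusted p = 0.00446) and in parental cells (0.63 ± 0.22 SE, adjusted p = 0.0168), the second call being lost without parental DMSO replicate 1 (adjusted p = 0.0625).

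WNT11 rose in R1 and parental cells, and WNT1, without reads there under DMSO, was detected in both when treated. WNT11 had 0.514, 0.786 and 0.819 CPM treated and 0.155, 0.129 and 0.113 with DMSO in R1. Parental WNT11 CPM was 4.02, 4.61 and 4.67 treated and 0.335, 0.304 and 0.214 with DMSO. It rose 5.34-fold in R1 and 15.6-fold in parental cells, with adjusted p = 6.8e-04 and 8.0e-08 in fits on the libraries of each population alone. WNT1 had 0.0614, 0.134 and 0.116 CPM in treated R1 and 0.724, 0.836 and 0.704 CPM in treated parental libraries, and 0 reads in the 6 DMSO libraries of these populations. Against a floor of 3 reads in each DMSO library it was at least 4.23-fold higher with treatment in R1 and at least 27.7-fold higher in parental cells. WNT7A had 0.276, 0.37 and 0.559 CPM in treated R1 and 0.302, 0.317 and 0.258 CPM in treated parental libraries, 4.14-fold its DMSO level in R1 (adjusted p = 0.00672) and 48.2-fold in parental cells (95% counting interval 13.1 to 401.8, 142 reads against 2).

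WNT10B and WNT3 gave opposite or weaker changes. WNT10B CPM was 2.78, 2.98 and 3.49 treated and 4.35, 5.41 and 6.08 with DMSO in R1, and it fell by 0.62 ± 0.14 on the log2 scale there (SE, adjusted p = 0.00456) without overlap. In R2 it was 1.17, 0.694 and 1.59 treated and 1.28, 0.928 and 1.16 with DMSO, and in parental cells 11.6, 10.5 and 12.5 treated and 13.1, 14.7 and 12.1 with DMSO, groups that overlapped. WNT3 CPM was 0.644, 0.818 and 0.841 treated and 0.388, 0.346 and 0.452 with DMSO in R1, where the groups were separate, and its log2 change of 0.34 ± 0.12 (SE) came just short of the threshold (adjusted p = 0.0509). WNT3 groups overlapped in R2, at 1.48, 0.883 and 0.909 treated and 1.18, 0.965 and 1.18 with DMSO, and in parental cells, at 1.04, 0.978 and 1.02 treated and 1.26, 1.42 and 0.613 with DMSO. WNT10A was restored in treated parental cells alone, at 0.535, 0.428 and 0.51 CPM, 2.95-fold its DMSO level (adjusted p = 6.0e-05).

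WNT6 had 3, 3 and 6 reads in treated and 1, 1 and 0 in DMSO R1 libraries, 6, 4 and 11 in treated and 3, 0 and 0 in DMSO R2 libraries, and 25, 14 and 28 in treated and 0, 0 and 0 in DMSO parental libraries. Treated parental cells were highest and at least 5.00-fold above a floor of 3 reads in each DMSO library. WNT6 reached the read minimum through the 3 treated parental libraries and 1 treated R2 library, so a rise in parental cells was built in and no p is given. WNT8B CPM in treated libraries was 0.0614, 0.0315 and 0.0885 in R1, 0.0094, 0.0158 and 0.0158 in R2 and 0.132, 0.214 and 0.0859 in parental cells, and its response passed in no population. WNT2, WNT3A and WNT16 stayed at 0 to 11 reads in each library where they were restored.

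In treated cells the comparison between populations was made within the restored table, where 26 members could be tested. Between R1 and parental cells 8 were higher and 10 lower against 35.5% of all genes higher and 31.7% lower (67.2% called), with medians of -0.15 for members and 0.04 for all genes. Between R2 and parental cells 13 were higher and 9 lower against 38.8% of all genes higher and 33.6% lower (72.5% called), with medians of 0.27 and 0.07. Between R1 and R2 cells 7 were higher and 11 lower against 28.9% of all genes higher and 29.4% lower (58.3% called), with medians of -0.40 and -0.01. The lower counts against parental cells include WNT6 and WNT8B, which reached the minimum mainly through parental libraries. FZD10, lower in treated R1, reached it without an R1 library. For these genes the minimum favoured the differences counted. WNT4 was still 5.64 ± 0.17 (SE, adjusted p = 1.2e-10) higher on the log2 scale in treated R2 than in treated parental cells, and WNT5A 1.14 ± 0.12 (SE, adjusted p = 2.7e-06). WNT9A, higher in both resistant populations with DMSO, was lower in both when treated, with log2 differences of -0.62 ± 0.23 (SE, adjusted p = 0.0299) in R1 and -0.86 ± 0.23 (SE, adjusted p = 0.00473) in R2. The first of these WNT9A calls was lost without any 1 of R1 treated replicate 1 or 2 or parental treated replicate 1, 2 or 3 (adjusted p = 0.0670 to 0.138).

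Treated WNT7B normalized counts were 2207, 2889 and 3638 in R1, 784, 565 and 896 in R2 and 1209.8, 904 and 845 in parental libraries. R1 remained above all parental libraries (log2 difference 1.55 ± 0.21 SE, adjusted p = 3.6e-05), while R2 and parental cells overlapped (adjusted p = 0.0979). Treated WNT10B stayed lower in R1 (-1.86 ± 0.23 SE, adjusted p = 1.6e-05) and in R2 (-3.33 ± 0.23 SE, adjusted p = 8.1e-08) than in parental cells. WNT1 and WNT11 were lower in treated R1 than in treated parental cells in the fit on those 2 groups alone (log2 differences -2.80 ± 0.28 SE, adjusted p = 1.1e-05 and -2.62 ± 0.18 SE, adjusted p = 8.8e-07), a fit that called 9 of 32 members higher and 14 lower against 35.8% of all genes higher and 35.8% lower (71.6% called). WNT6, FZD10 and WIF1 entered it through parental cells alone, and without them 9 of 29 were higher and 11 lower. The corresponding fit called 13 of 27 higher and 10 lower between R2 and parental cells against 37% of all genes higher and 34.4% lower (71.4% called), or 13 of 25 higher and 8 lower without WNT8B and SFRP2, which entered through parental cells alone. Between R1 and R2 cells it called 6 of 25 higher and 12 lower against 26.7% of all genes higher and 27.8% lower (54.5% called). Without FZD10, which entered through R2 cells alone, 6 of 24 were higher and 11 lower.

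WNT6 and WNT8B were called lower in both treated resistant populations than in treated parental cells. The log2 difference was -2.02 ± 0.37 (SE, adjusted p = 4.1e-04) in R1 and -1.12 ± 0.37 (SE, adjusted p = 0.0157) in R2 for WNT6, and -1.13 ± 0.41 (SE, adjusted p = 0.0292) and -2.74 ± 0.41 (SE, adjusted p = 7.4e-05) for WNT8B. Without R2 treated replicate 2, parental treated replicate 1 or parental treated replicate 3 the WNT6 call in R2 was lost (adjusted p = 0.0698, 0.0556 and 0.06). Without R1 treated replicate 2, parental treated replicate 1 or parental treated replicate 2 the WNT8B call in R1 was lost (adjusted p = 0.126, 0.0626 and 0.132). Of the 4 treated libraries at or above the minimum for each gene, 3 were parental, with 1 of R2 for WNT6 and 1 of R1 for WNT8B, so the minimum favoured a higher parental level. Both genes had few reads, with WNT8B at 1, 2 and 2 reads in the treated R2 libraries. Treated WNT2B was 1.63 ± 0.22 (SE, adjusted p = 3.7e-05) higher in R1, and treated WNT5B was 1.22 ± 0.09 (SE, adjusted p = 2.4e-07) higher in R1 and 2.52 ± 0.09 (SE, adjusted p = 4.3e-10) higher in R2 than in parental cells.

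The 10 Frizzled receptors were measurable in at least 2 of the 3 populations. With DMSO, 2 were higher and 5 lower in R1 than in parental cells (29.3% and 26.6% of all genes), and 6 were higher and 3 lower in R2 (32.1% and 29.8% of all genes). FZD8 and FZD2 were higher in both. FZD8 had 3309, 3714 and 5199.6 normalized counts in R1, 4447, 4217 and 5487 in R2 and 1227, 1402 and 1122 in parental libraries. Every resistant library was above every parental one, with log2 differences of 1.68 ± 0.17 (SE, adjusted p = 8.7e-06) in R1 and 1.91 ± 0.17 (SE, adjusted p = 2.2e-06) in R2. FZD2 had 681, 622 and 1320.2 in R1, 418, 327 and 597 in R2 and 225, 179 and 110.4 in parental libraries, again without overlap, and the differences were 2.32 ± 0.34 (SE, adjusted p = 1.5e-04) and 1.39 ± 0.34 (SE, adjusted p = 0.00395). R1 replicate 3 was the highest and parental replicate 3 the lowest library for FZD2. The FZD2 call between R1 and R2 (adjusted p = 0.0389) was lost without R1 DMSO replicate 3, R2 DMSO replicate 1 or 2, or parental DMSO replicate 2 (adjusted p = 0.161, 0.0861, 0.138 and 0.0578).

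FZD5 was lower in both resistant populations. FZD5, which pairs with WNT5A and WNT7 ligands in several systems, had 1487, 1481 and 1508 normalized counts in R1, 1958, 2629 and 2910.0 in R2 and 5440.0, 4898 and 4943 in parental libraries. The groups were separate, and R1 was lowest, 3.44-fold below parental cells in mean CPM (log2 difference -1.77 ± 0.13 SE, adjusted p = 1.0e-06), with R2 at -1.05 ± 0.13 (SE, adjusted p = 4.4e-05). FZD10 differed in opposite directions, with 0, 0 and 1.93 in R1, 91.4, 80 and 72.7 in R2 and 13.8, 17.2 and 9.74 in parental libraries. R1 had 2 reads against 41 in parental cells, 22.8-fold lower (95% counting interval 5.92 to 194.5, adjusted p = 5.8e-05), and R2 was 5.85-fold higher (log2 difference 2.52 ± 0.43 SE, adjusted p = 3.5e-04).

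FZD1 and FZD6 were lower in R1 and higher in R2. FZD1 had 629, 569 and 704 normalized counts in R1, 1722, 2136 and 3016 in R2 and 1508, 1257 and 1043 in parental libraries. No groups overlapped, with log2 differences of -0.99 ± 0.20 (SE, adjusted p = 0.00153) in R1 and 0.83 ± 0.20 (SE, adjusted p = 0.004) in R2. FZD6 had 3589.6, 3697 and 3216 in R1, 7498, 8874 and 9282 in R2 and 5878, 5693 and 7143 in parental libraries, also without overlap, and differences of -0.83 ± 0.12 (SE, adjusted p = 1.2e-04) and 0.46 ± 0.12 (SE, adjusted p = 0.00556). FZD4, known for retinal vessel growth as a receptor of norrin, had 4183, 4275 and 3387 in R1, 6323, 6514 and 4436 in R2 and 5968, 6085 and 7905 in parental libraries. It was lower in R1 (-0.75 ± 0.17 SE, adjusted p = 0.00271) and overlapped the parental range in R2 (adjusted p = 0.281). The FZD4 call between R1 and R2 (adjusted p = 0.0194) was lost without R1 DMSO replicate 3, R2 DMSO replicate 1 or R2 DMSO replicate 2 (adjusted p = 0.0789, 0.0673 and 0.0796). Opposite-strand PRSS23 covers 19.0% of FZD4 exon bases and BAALC-AS1 covers 3.40% of those of FZD6.

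FZD7, FZD3 and FZD9 differed less or in R2 alone. FZD7 had 3394, 3509.7 and 3462 normalized counts in R1, 5448, 5124 and 5325 in R2 and 3149, 3514 and 3285 in parental libraries. R1 overlapped the parental range (adjusted p = 0.562) and R2 was above it (0.68 ± 0.08 SE, adjusted p = 2.9e-05). FZD3 had 3207, 3587 and 3145 in R1, 2444, 3123 and 2836 in R2 and 3816, 3384 and 4211 in parental libraries, and passed in R2 (-0.44 ± 0.12 SE, adjusted p = 0.00742). FZD9 had 155, 196 and 364 in R1, 119, 56.5 and 122 in R2 and 238, 374 and 146 in parental libraries. Its spread within groups was wide, and its calls in R2 against parental cells (log2 difference -1.32 ± 0.42 SE, adjusted p = 0.0169) and in R1 against R2 (1.24 ± 0.42 SE, adjusted p = 0.0266) were both lost without single libraries. The first needed R2 DMSO replicate 2 and parental DMSO replicate 2 (adjusted p = 0.0717 and 0.0834 without each), and the second R1 DMSO replicate 3 and R2 DMSO replicate 2 (0.112 and 0.107).

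Per kilobase, FZD8, FZD7 and FZD6 were the most abundant Frizzled RNAs in R1 with DMSO, at 9.04 ± 2.3, 8 ± 0.12 and 7.69 ± 0.5 CPM per kilobase (SD, n = 3), levels within their spread. FZD6 led in R2 at 18.5 ± 2.1, ahead of FZD7 at 12.1 ± 0.47 and FZD8 at 10.3 ± 1.6. In parental cells FZD6 led at 13.8 ± 1.7, followed by FZD4 at 8.12 ± 1.3, FZD7 at 7.75 ± 0.48 and FZD5 at 6.84 ± 0.37. The 10 receptors summed to 39.1 CPM per kilobase in R1, 58.3 in R2 and 45.2 in parental cells with DMSO, and to 38.5, 59.7 and 41.8 in the treated R1, R2 and parental cells.

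With treatment FZD4 and FZD6 fell in parental cells and were not called in either resistant population. FZD4 CPM was 20.6, 22.5 and 21.8 treated and 53.5, 55.2 and 71.1 with DMSO in parental cells, which did not overlap, a fall of 1.42 ± 0.14 on the log2 scale (SE, adjusted p = 2.4e-07). It was 33.9, 30.5 and 28.3 treated and 37.4, 37.9 and 30.5 with DMSO in R1, and 50.9, 54.7 and 40.7 treated and 55.7, 56.7 and 39.5 with DMSO in R2, groups that overlapped. The responses of the resistant populations differed from the parental one by 1.24 ± 0.20 (SE, adjusted p = 1.3e-04) in R1 and 1.37 ± 0.20 (SE, adjusted p = 3.7e-05) in R2. FZD6 CPM was 31.5, 33 and 28.8 treated and 32.1, 32.7 and 29 with DMSO in R1, and 67.7, 86.2 and 91.6 treated and 66, 77.3 and 82.7 with DMSO in R2. Parental FZD6 CPM was 31.4, 30.4 and 32.9 treated and 52.7, 51.7 and 64.2 with DMSO. Here too the parental groups were the ones without overlap (log2 change -0.81 ± 0.11 SE, adjusted p = 8.4e-06), and the difference from the parental response was 0.80 ± 0.16 (SE, adjusted p = 6.3e-04) in R1 and 0.92 ± 0.16 (SE, adjusted p = 1.5e-04) in R2. Between treated cells FZD4 was 0.56 ± 0.12 (SE, adjusted p = 0.00134) higher in treated R1 and 1.23 ± 0.12 (SE, adjusted p = 1.7e-06) higher in treated R2 than in treated parental cells. With DMSO it had been lower in R1 and not called in R2.

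FZD8 fell in both resistant populations. Its CPM was 13.8, 14.9 and 20.8 treated and 29.6, 32.9 and 46.8 with DMSO in R1, and 20.9, 17.5 and 21.6 treated and 39.2, 36.7 and 48.9 with DMSO in R2. Parental FZD8 CPM was 13.2, 12.8 and 13.6 treated and 11, 12.7 and 10.1 with DMSO. The treated libraries were below the DMSO libraries in the resistant populations and slightly above them in parental cells. The log2 changes were -1.09 ± 0.17 (SE, adjusted p = 1.3e-04) in R1 and -1.02 ± 0.17 (SE, adjusted p = 4.0e-04) in R2, against 0.22 ± 0.17 (SE, adjusted p = 0.272) in parental cells, and the differences from the parental response were -1.31 ± 0.24 (SE, adjusted p = 2.8e-04) and -1.23 ± 0.24 (SE, adjusted p = 3.8e-04). In treated cells FZD8 was 0.34 ± 0.13 (SE, adjusted p = 0.0356) higher in R1 and 0.66 ± 0.13 (SE, adjusted p = 7.0e-04) higher in R2 than in parental cells, the first call being lost without R1 treated replicate 3 or without parental treated replicate 1, 2 or 3 (adjusted p = 0.157, 0.0761, 0.0998 and 0.0649).

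FZD5 and FZD7 rose in all 3 populations. FZD5 CPM was 28.7, 34.3 and 32.4 treated and 13.3, 13.1 and 13.6 with DMSO in R1, and 23.8, 35.4 and 41.8 treated and 17.2, 22.9 and 25.9 with DMSO in R2. Parental FZD5 CPM was 61.6, 60.9 and 60.3 treated and 48.7, 44.5 and 44.5 with DMSO. Only R2 overlapped, and the log2 changes were 1.19 ± 0.16 (SE, adjusted p = 3.1e-05) in R1, 0.57 ± 0.16 (SE, adjusted p = 0.0162) in R2 and 0.40 ± 0.16 (SE, adjusted p = 0.033) in parental cells. The R2 call was lost without treated replicate 2 or 3 or DMSO replicate 1 (adjusted p = 0.0619, 0.0985 and 0.0832), and the parental one without any treated replicate or without DMSO replicate 2 or 3 (0.0644 to 0.0803). These fits did not pair libraries by replicate number, and with it as a block both calls stayed. FZD7 CPM was 36.3, 41.5 and 44.4 treated and 30.3, 31.1 and 31.2 with DMSO in R1, and 57.4, 60 and 65 treated and 48, 44.6 and 47.5 with DMSO in R2. Parental FZD7 CPM was 40.3, 50.6 and 52.4 treated and 28.2, 31.9 and 29.5 with DMSO. None of its groups overlapped, with log2 changes of 0.38 ± 0.09 (SE, adjusted p = 0.00542) in R1, 0.37 ± 0.09 (SE, adjusted p = 0.00865) in R2 and 0.65 ± 0.09 (SE, adjusted p = 1.1e-05) in parental cells.

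FZD9 and FZD10, receptors at low levels, rose in 2 populations each. FZD9 CPM was 3.25, 4.08 and 6.21 treated and 1.39, 1.74 and 3.28 with DMSO in R1, and 6.08, 5.14 and 6.06 treated and 2.13, 3.4 and 1.31 with DMSO in parental cells, and the groups overlapped barely in R1 and not in parental cells. Its log2 changes were 0.83 ± 0.25 (SE, adjusted p = 0.0222) and 1.09 ± 0.25 (SE, adjusted p = 0.00114) there, the first lost without treated replicate 2 or 3 or DMSO replicate 1 or 2 (adjusted p = 0.0504 to 0.108). With the replicate number as a block, which these fits left out, the R1 call stayed. FZD9 in R2 was 1.66, 1.03 and 1.81 treated and 1.05, 0.492 and 1.08 with DMSO. FZD10 was 1.5, 1.69 and 2.03 CPM treated and 0.805, 0.696 and 0.649 with DMSO in R2. Parental FZD10 CPM was 0.447, 0.492 and 0.435 treated and 0.124, 0.156 and 0.0876 with DMSO. It rose 2.43-fold in R2 (adjusted p = 3.0e-07) and 3.74-fold in parental cells (adjusted p = 9.9e-06), and 1 read was counted over the 3 treated R1 libraries.

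FZD3 fell in parental cells, with 22.8, 24.1 and 24.6 CPM treated and 34.2, 30.7 and 37.9 with DMSO, a log2 change of -0.50 ± 0.12 (SE, adjusted p = 0.00139) without overlap. FZD1 CPM in treated libraries was 6.07, 6.95 and 8.05 in R1, 15.6, 17.9 and 26.7 in R2 and 11.4, 9.05 and 9.32 in parental cells, and FZD2 CPM was 3.6, 4.21 and 7.04 in R1, 3.02, 2.08 and 3.67 in R2 and 1.37, 1.1 and 1.56 in parental cells. Without the replicate block neither response passed in any population, and with it both were called in R1. Between treated populations FZD2 was higher in R1 (1.87 ± 0.25 SE, adjusted p = 3.3e-05) and R2 (1.16 ± 0.25 SE, adjusted p = 0.00117) than in parental cells, and FZD1 was higher in R2 (1.04 ± 0.18 SE, adjusted p = 2.0e-04). FZD1 was called lower in treated R1 (-0.46 ± 0.18 SE, adjusted p = 0.0387), a call lost without R1 treated replicate 1 or 2 or parental treated replicate 1 or 3 (adjusted p = 0.0569 to 0.156). The FZD2 call between treated R1 and R2 (0.72 ± 0.25 SE, adjusted p = 0.0261) was lost without R1 treated replicate 3 or R2 treated replicate 2 (0.113 and 0.114).

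LRP5 and LRP6, the co-receptors through which the beta-catenin branch signals, varied less than most receptors. LRP5 had 9339, 9502 and 14735 normalized counts in R1, 10392, 7839 and 13618 in R2 and 10885, 12087 and 6469.6 in parental DMSO libraries. All groups overlapped, parental replicate 3 being lowest and R1 replicate 3 highest, and the 95% intervals of the log2 difference from parental cells were -0.38 to 0.79 in R1 and -0.46 to 0.71 in R2. LRP5 CPM was 84.3, 96.1 and 141 in treated R1, 96, 64.2 and 109 in treated R2 and 68.9, 53.2 and 61.8 in treated parental libraries. Treated LRP5 was higher in R1 (0.83 ± 0.20 SE, adjusted p = 0.00261) and R2 (0.58 ± 0.20 SE, adjusted p = 0.0175) than in treated parental cells. Without the replicate block its response passed in no population (95% interval of the log2 change -0.48 to 0.68 in R1, -0.64 to 0.52 in R2 and -1.06 to 0.10 in parental cells). With the block it was called in parental cells. The treated call in R2 was lost without R2 treated replicate 1 or 3 or parental treated replicate 2 (adjusted p = 0.0620, 0.0668 and 0.0746).

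LRP6 had 5085, 5648 and 4731 normalized counts in R1, 9952, 9379 and 7259 in R2 and 6257, 6312 and 7964 in parental DMSO libraries. R1 lay below the parental range, with a log2 difference of -0.40 ± 0.14 (SE, adjusted p = 0.0279), and R2 lay higher, with 0.37 ± 0.14 (SE, adjusted p = 0.0373) and overlap. Both calls depended on single libraries. The first was lost without R1 DMSO replicate 1 or 3 or parental DMSO replicate 3 (adjusted p = 0.0732, 0.0954 and 0.101). The second was lost without R1 DMSO replicate 1, R2 DMSO replicate 1 or 2, or parental DMSO replicate 1 or 2 (0.0538 to 0.129). LRP6 CPM was 55.6, 52.7 and 48 in treated R1, 83.8, 81.9 and 66.9 in treated R2 and 52.1, 61.6 and 61.8 in treated parental libraries, and it was higher in treated R2 than in treated parental cells (0.47 ± 0.11 SE, adjusted p = 0.00218).

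The secreted antagonists differed between populations and with treatment. With DMSO, 6 of the 10 could be tested, of which SFRP1 and WIF1 had passed the minimum through R2 alone. Of the other 4, DKK1, DKK3, SFRP4 and FRZB, 3 were higher and 1 lower in R1 than in parental cells (29.3% and 26.6% of all genes), and 4 were higher in R2 (32.1% of all genes). FRZB reached the minimum through R1 and R2 libraries alone, so the minimum favoured a higher resistant level for it. The median log2 difference of the 4, FRZB included, was 2.18 in R1 and 1.67 in R2. The 250 bases before the RefSeq starts of 3 antagonists are printed because these promoters are of the kind known to be methylated in cancers. RNA of each gene was also higher in treated than in DMSO parental libraries, a rise that the read minimum had built in for WIF1 and SFRP2. The promoters of SFRP4, SFRP5 and FRZB were found too and are not printed. Capitals mark each CpG. DKK1 is at chr10:52314031-52314280 on the plus strand with 18 CpG, WIF1 at chr12:65121306-65121555 on the minus strand with 27, and SFRP2 at chr4:153789084-153789333 on the minus strand with 11 (GRCh38.p14).
DKK1: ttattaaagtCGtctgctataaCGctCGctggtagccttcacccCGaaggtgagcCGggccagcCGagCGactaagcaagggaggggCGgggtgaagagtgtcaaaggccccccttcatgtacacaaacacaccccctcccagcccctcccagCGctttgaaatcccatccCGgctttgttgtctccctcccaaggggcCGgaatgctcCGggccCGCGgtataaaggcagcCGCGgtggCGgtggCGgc
WIF1: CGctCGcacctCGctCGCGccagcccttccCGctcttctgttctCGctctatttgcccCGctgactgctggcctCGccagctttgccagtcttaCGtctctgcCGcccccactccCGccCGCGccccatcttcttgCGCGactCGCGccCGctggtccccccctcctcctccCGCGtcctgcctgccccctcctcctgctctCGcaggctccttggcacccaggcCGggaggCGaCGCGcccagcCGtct
SFRP2: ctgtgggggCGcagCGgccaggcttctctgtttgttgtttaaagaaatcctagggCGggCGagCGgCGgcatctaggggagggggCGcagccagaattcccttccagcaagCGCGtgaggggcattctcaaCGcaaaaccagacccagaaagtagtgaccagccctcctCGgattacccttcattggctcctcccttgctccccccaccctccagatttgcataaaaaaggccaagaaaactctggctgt
By the rule given for WNT4, the DKK1 and WIF1 promoters were rich in CpG and that of SFRP2 was not, and 3 of the 6 antagonist promoters found (50%) were, with a median of 17.5 CpG.

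DKK1, which blocks LRP5 and LRP6 and is itself a target of beta-catenin, was the most abundant antagonist per kilobase with DMSO, at 72.1 ± 10, 6.98 ± 1.3 and 3.99 ± 0.57 CPM per kilobase in R1, R2 and parental cells (SD, n = 3 each). Normalized counts with DMSO were 15981, 17002 and 20442 in R1, 1682, 1479 and 2075 in R2 and 834, 983 and 1112 in parental libraries. The 3 groups were separate, and R1 was 18.1-fold above parental cells in mean CPM (log2 difference 4.19 ± 0.15 SE, adjusted p = 2.8e-09), with R2 in between (0.83 ± 0.15 SE, adjusted p = 6.1e-04 over parental cells). Treatment moved the populations in opposite directions. CPM was 55.4, 62 and 85.8 treated and 143, 151 and 184 with DMSO in R1, and 15.7, 11.5 and 13.3 treated and 14.8, 12.9 and 18.5 with DMSO in R2. Parental DKK1 CPM was 65.5, 70.3 and 67.6 treated and 7.47, 8.93 and 10 with DMSO. DKK1 fell in R1, 2.35-fold (log2 change -1.24 ± 0.16 SE, adjusted p = 2.8e-05), rose in parental cells, 7.71-fold (2.82 ± 0.16 SE, adjusted p = 2.0e-10), and overlapped in R2 (adjusted p = 0.565).

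The difference of the DKK1 response from the parental response was -4.06 ± 0.23 (SE, adjusted p = 7.4e-10) in R1 and -2.99 ± 0.23 (SE, adjusted p = 2.3e-08) in R2. Treated R1 and treated parental cells ended at similar levels, with normalized counts of 7942, 8777 and 11859 in treated R1 and 9033, 9581 and 9197 in treated parental libraries and a log2 difference of 0.02 ± 0.14 (SE, 95% interval -0.29 to 0.32, adjusted p = 0.917). Treated R2 was lower than treated parental cells, with a log2 difference of -2.28 ± 0.14 (SE, adjusted p = 3.4e-08). DKK1 lies at chr10:52314296-52318042 on the plus strand (GRCh38, GENCODE v29), and 9.61% of its exon bases overlap PRKG1-AS1 on the opposite strand.

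DKK3, a DKK relative whose link to LRP is less clear, was higher in both resistant populations with DMSO. It had 282, 311 and 233 normalized counts in R1, 1290.0, 1276 and 1146 in R2 and 52.2, 53.6 and 45.5 in parental libraries. The groups were well apart, with log2 differences of 2.42 ± 0.16 (SE, adjusted p = 3.3e-07) and 4.59 ± 0.16 (SE, adjusted p = 1.7e-09), or 5.41-fold and 24-fold in mean CPM. DKK3 fell with treatment, to 1.37, 1.58 and 1.45 CPM in treated R1 against 2.52, 2.76 and 2.1 with DMSO, and to 6.52, 6.11 and 5.34 CPM in treated R2 against 11.4, 11.1 and 10.2 with DMSO. In fits on each population alone the log2 change was -0.48 ± 0.09 (SE, adjusted p = 0.0056) in R1 and -0.77 ± 0.12 (SE, adjusted p = 0.00838) in R2. DKK2 and DKK4 were barely detected, with 0 reads of DKK2 in the DMSO libraries and in the treated resistant libraries, and 30 reads of DKK4 over the treated parental libraries against 1 with DMSO (ratio 20.4, 95% counting interval 3.39 to 830.7).

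SFRP1, a soluble Frizzled-like protein that binds WNT ligands, was nearly silent in R1 and parental cells with DMSO. It had 2, 2 and 2 reads in R1, 16, 20 and 17 in R2 and 1, 0 and 0 in parental DMSO libraries. R2 was 54.6-fold above parental cells (95% counting interval 9.38 to 2195), a difference that the minimum, reached in R2 alone, had built in. The 6 reads in R1 against 1 in parental cells gave a ratio of 5.40 (0.655 to 248.3), and although limma called the difference (adjusted p = 0.0181), it was lost without parental DMSO replicate 2 or 3 (0.0574 and 0.0553) and the counting interval includes 1. With treatment SFRP1 reached 2.51, 2.51 and 1.69 CPM in R1 and 1.45, 2.02 and 1.82 CPM in parental cells. That was 133-fold the DMSO level in R1 (95% counting interval 61 to 364, 952 reads against 6) and 583-fold in parental cells (104.4 to 23050, 859 reads against 1), the minimum having been reached through treated libraries alone in both. The log2 difference between treated R1 and treated parental cells was 0.38 ± 0.19 (SE, adjusted p = 0.103) in the fit on those groups.

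SFRP4 had 28.6, 25.5 and 17.4 normalized counts in R1, 132, 132 and 138 in R2 and 85.7, 46.9 and 55.2 in parental DMSO libraries. The groups were separate, R1 lowest (-1.34 ± 0.27 SE, adjusted p = 0.00151 against parental cells) and R2 highest (1.13 ± 0.27 SE, adjusted p = 0.00365). With treatment it had 2.4, 4.07 and 3.05 CPM in R1 against 0.256, 0.226 and 0.157 with DMSO, and 9.94, 6.73 and 7.74 CPM in parental cells against 0.768, 0.426 and 0.497 with DMSO. The rise was 14.9-fold in R1 (log2 change 1.76 ± 0.13 SE, adjusted p = 8.4e-05) and 14.4-fold in parental cells (2.54 ± 0.14 SE, adjusted p = 6.4e-07), and treated R1 remained below treated parental cells (-1.33 ± 0.20 SE, adjusted p = 1.9e-04).

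WIF1, WNT inhibitory factor 1, had 0, 1 and 2 reads in R1, 39, 122 and 139 in R2 and 1, 0 and 0 in parental DMSO libraries. R2 replicate 1 was the lowest of its group and still far above every library of the other populations, and 300 reads against 1 in parental cells gave a ratio of 308.9 (95% counting interval 55 to 12240), with the minimum reached through R2 alone. In R1 the difference from parental cells did not pass (adjusted p = 0.485). With treatment WIF1 reached 0.39, 0.389 and 0.424 CPM in parental libraries, 133-fold the DMSO level (23.6 to 5281, 196 reads against 1), and 0.023, 0.0393 and 0.0387 CPM in R1, 4.20-fold (1.19 to 22.6, 15 reads against 3). Treated R1 was 11.7-fold below treated parental cells (95% counting interval 6.95 to 21.4, 15 reads against 196), where parental libraries alone reached the minimum.

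FRZB, also named SFRP3, was higher in both resistant populations with DMSO and rose with treatment in parental cells. It had 19.1, 28.2 and 15.5 normalized counts in R1, 33.9, 30.9 and 14.1 in R2 and 2.95, 4.79 and 6.49 in parental DMSO libraries. No parental DMSO library reached the minimum for FRZB, so the minimum favoured a higher resistant level. All resistant libraries exceeded the parental ones, with log2 differences of 1.94 ± 0.40 (SE, adjusted p = 0.00169) in R1 and 2.21 ± 0.40 (SE, adjusted p = 5.8e-04) in R2. With treatment its CPM was 0.314, 0.204 and 0.122 in R1 against 0.171, 0.25 and 0.139 with DMSO, 0.179, 0.268 and 0.221 in R2 against 0.298, 0.269 and 0.126, and 1.04, 0.765 and 0.807 in parental cells against 0.0265, 0.0435 and 0.0584. Parental FRZB rose 20.3-fold (0.84 ± 0.07 SE, adjusted p = 9.3e-09 on the log2 scale), and both resistant populations overlapped their controls. With treatment the order was the reverse of that with DMSO, since FRZB was -2.03 ± 0.32 (SE, adjusted p = 1.2e-04) in R1 and -1.88 ± 0.32 (SE, adjusted p = 1.8e-04) in R2 relative to treated parental cells. The response differed from the parental one by -0.81 ± 0.09 (SE, adjusted p = 3.0e-06) in R1 and -0.85 ± 0.09 (SE, adjusted p = 1.4e-06) in R2.

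SFRP2 and SFRP5 had no reads in parental DMSO libraries. SFRP2 reached 0.485, 0.389 and 0.338 CPM in treated parental cells, at least 14.8-fold above a floor of 3 reads in each DMSO library, and SFRP5 reached 0.214, 0.181 and 0.12 CPM, at least 6.31-fold. SFRP2 had 0.0376, 0.0316 and 0.0553 CPM in treated and 0.0181, 0.00928 and 0.106 CPM in DMSO R2 libraries, DMSO replicate 3 being high, and treated R2 was 9.63-fold below treated parental cells (95% counting interval 5.70 to 17.5), where again parental libraries alone reached the minimum. In the fit on parental libraries alone DKK1 and SFRP4 rose, while SFRP1, SFRP2, SFRP5, WIF1 and FRZB had entered it through treated cells alone and so had to. Between treated cells, leaving out WIF1 in R1 and SFRP2 in R2, 2 of 4 antagonists were lower in R1 than in parental cells (35.8% of all genes) and 2 of 2 were lower in R2 (34.4% of all genes).

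**Figure D5:**
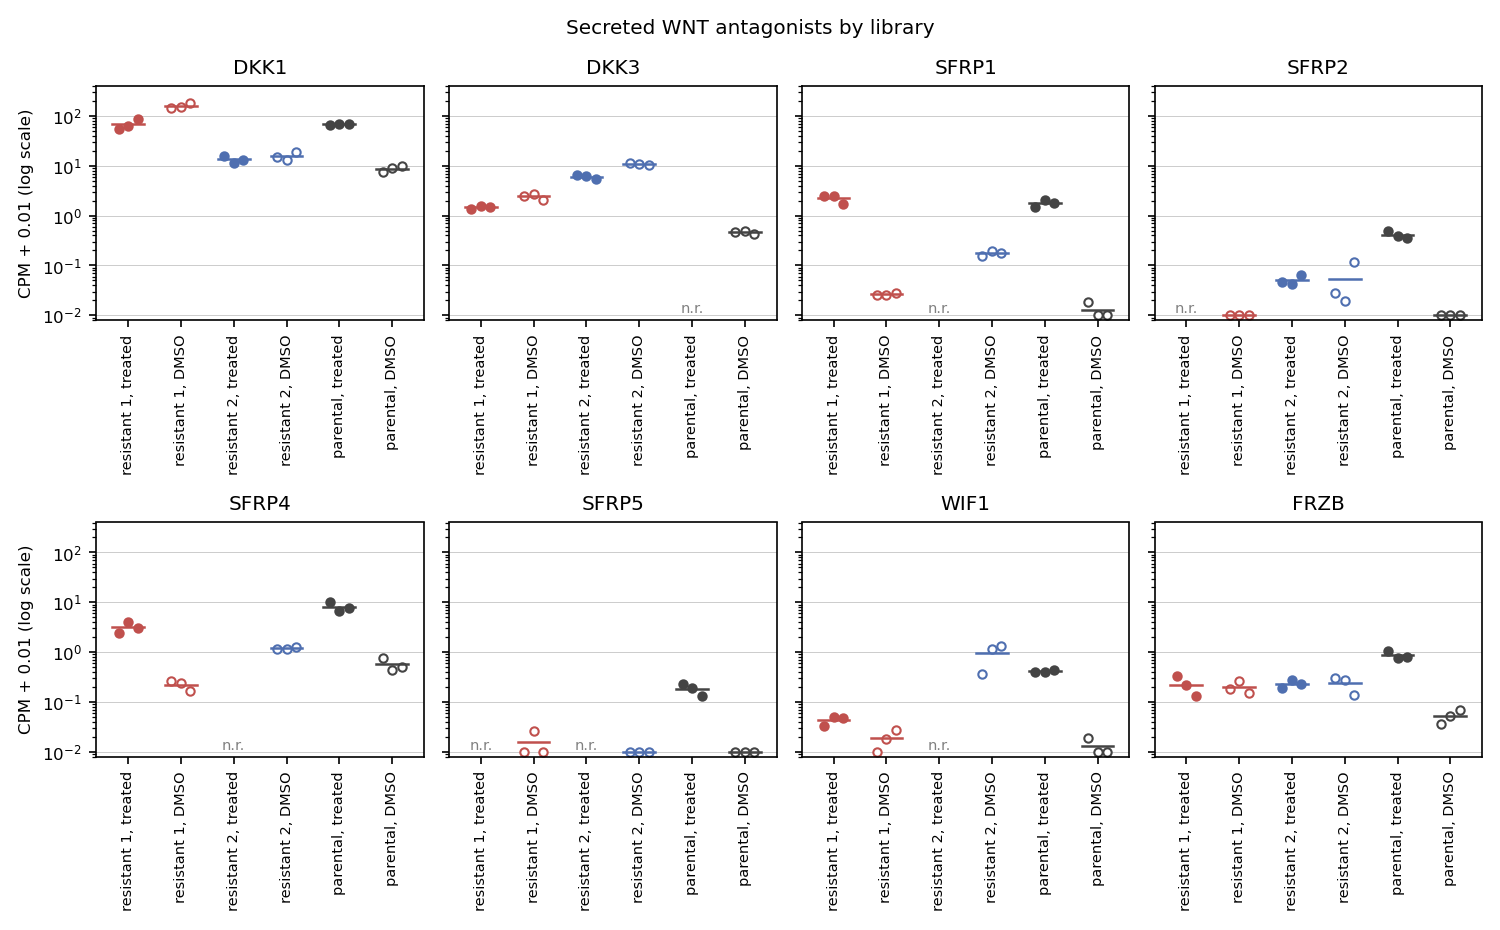
CPM plus 0.01 on a log axis of 8 antagonists in each library, treated (filled) and DMSO (open) in R1, R2 and parental cells, with a bar at each group mean and n.r. where treated values were not restored. DKK1 is 55.4 to 85.8 CPM treated and 143 to 184 CPM with DMSO in R1 but 65.5 to 70.3 CPM treated and 7.47 to 10 CPM with DMSO in parental cells.

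AXIN2, a scaffold of the destruction complex and a widely used readout of beta-catenin signalling, differed between the resistant populations. It had 27.8, 30.9 and 41.5 normalized counts in R1, 219.8, 265 and 336 in R2 and 113, 61.3 and 53 in parental DMSO libraries. The groups were separate, R1 being -1.10 ± 0.30 (SE, adjusted p = 0.00923) and R2 1.90 ± 0.30 (SE, adjusted p = 2.2e-04) relative to parental cells on the log2 scale. With treatment its CPM was 0.721, 0.849 and 1.1 in R1 against 0.248, 0.274 and 0.374 with DMSO, 2.29, 3.15 and 3.38 in R2 against 1.94, 2.31 and 2.99, and 5.92, 5.09 and 5.34 in parental cells against 1.01, 0.556 and 0.477. It rose 7.99-fold in parental cells (1.95 ± 0.14 SE, adjusted p = 2.2e-09) and 2.98-fold in R1 (0.54 ± 0.14 SE, adjusted p = 0.00735), while R2 overlapped (adjusted p = 0.354). With the replicate number as a block the AXIN2 response in R2 was called. The response was smaller than in parental cells, with differences of -1.41 ± 0.19 (SE, adjusted p = 1.8e-05) in R1 and -1.74 ± 0.19 (SE, adjusted p = 1.5e-06) in R2. Treated AXIN2 was then lower in R1 (-2.58 ± 0.18 SE, adjusted p = 1.7e-07) and in R2 (-0.84 ± 0.18 SE, adjusted p = 0.00118) than in parental cells, and 25.2% of its exon bases overlap AC004805.1 on the same strand.

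DAAM2, a formin-family protein linked to Dishevelled and the planar polarity branch, had 6.94, 4.55 and 14.5 normalized counts in R1, 3716, 4736 and 4577 in R2 and 33.5, 33.5 and 41.1 in parental DMSO libraries. R2 was 118-fold above parental cells in mean CPM (6.87 ± 0.32 SE, adjusted p = 1.6e-08) and R1 4.19-fold below (-2.07 ± 0.32 SE, adjusted p = 2.3e-04), a ratio of 493 between the resistant populations. Treatment left these differences in place, with 0.107, 0.0865 and 0.105 CPM in treated R1, 33.6, 40.6 and 39.9 in treated R2 and 0.22, 0.33 and 0.395 in treated parental libraries, and its response passed in no population. Opposite-strand genes cover part of its exons, AL590999.1 24.4% and MOCS1 5.67%.

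Whether the populations responded differently was tested directly on the 26 members. The response differed from the parental response for 4 members upwards and 8 downwards in R1, against 21.6% of all genes higher and 22.6% lower (44.3% called). In R2 it differed for 5 upwards and 9 downwards, against 25.1% of all genes higher and 24.8% lower (49.9% called). These comparisons share the 6 parental libraries. WNT6 was among the downward members in both, and it had reached the read minimum mainly through treated parental libraries. Between R1 and R2 responses, 3 members were higher and 3 lower against 2.87% of all genes higher and 1.74% lower (4.61% called). With the replicate number as a block within populations these counts were 20, 17 and 10 members, against 57.8%, 62.8% and 13.9% of all genes called. The 6 were WNT4, WNT5A and WNT5B, whose responses were higher in R1, and WNT7B, DKK1 and FZD10, whose responses were lower. The log2 difference between the R1 and R2 responses was 1.13 ± 0.17 (SE, adjusted p = 6.6e-04) for WNT5A, 0.91 ± 0.16 (SE, adjusted p = 0.00312) for WNT4, 0.74 ± 0.11 (SE, adjusted p = 7.3e-04) for WNT5B, -1.15 ± 0.26 (SE, adjusted p = 0.016) for WNT7B, -1.06 ± 0.23 (SE, adjusted p = 0.0126) for DKK1 and -0.68 ± 0.08 (SE, adjusted p = 4.2e-05) for FZD10, the last resting on a gene with at most 2 reads in any R1 library and not called by edgeR (adjusted p = 0.586).

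Other genes of the pathway were counted in lists chosen with earlier results of these data known. Of the 3 genes for ligand secretion and modification, 2 were higher in R1 and 2 in R2 with DMSO. For these lists the shares of all genes called are 55.9% in R1 and 61.9% in R2 with DMSO and 65.3% in the parental response. PORCN, the acyltransferase that lipidates WNT ligands, averaged 2443 ± 13.9 normalized counts in R1, 3395 ± 569 in R2 and 690.0 ± 33.1 in parental cells (SD, n = 3 each), log2 differences of 1.82 ± 0.12 (SE, adjusted p = 3.4e-07) and 2.29 ± 0.12 (SE, adjusted p = 4.0e-08). WLS, the carrier that takes ligands to the surface, was 1.03 ± 0.09 (SE, adjusted p = 3.8e-06) and 0.91 ± 0.09 (SE, adjusted p = 7.1e-06) higher. In parental cells PORCN rose with treatment (1.43 ± 0.13 SE, adjusted p = 4.8e-08) and WLS fell (-0.82 ± 0.08 SE, adjusted p = 2.8e-07).

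In the R-spondin list, whose products stabilise Frizzled at the surface or remove it, 4 of 8 tested genes were higher and 1 lower in R1, and 4 were higher and none lower in R2, beside 55.9% and 61.9% of all genes called. LGR5, an R-spondin receptor, averaged 1050.0 ± 57.9 normalized counts in R1, 52.8 ± 30.1 in R2 and 38.8 ± 5.09 in parental cells, higher in R1 by 4.73 ± 0.42 (SE, adjusted p = 3.0e-06). RNF43, an E3 ligase that removes Frizzled receptors, averaged 41.8 ± 6.94, 1084 ± 193 and 2.39 ± 1.25 in R1, R2 and parental cells, higher by 3.73 ± 0.31 (SE, adjusted p = 2.1e-06) and 8.39 ± 0.31 (SE, adjusted p = 2.9e-09). RSPO3, an R-spondin, was 2.10 ± 0.18 (SE, adjusted p = 1.6e-06) higher in R2, and it fell with treatment in R1 (-2.35 ± 0.16 SE, adjusted p = 2.5e-08), R2 (-1.71 ± 0.16 SE, adjusted p = 1.9e-06) and parental cells (-2.29 ± 0.16 SE, adjusted p = 2.7e-09).

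Of 8 genes tested with DMSO in a list of other surface receptors, which also holds the secreted antagonist SOSTDC1, 3 were higher and none lower in R1, and 5 were higher and 2 lower in R2, beside 55.9% and 61.9% of all genes called. SOSTDC1 was 1 of the 5 higher in R2 (4.41 ± 0.26 SE, adjusted p = 9.4e-08) and was not called in R1. GPC4, a glypican that binds WNT ligands, averaged 1855 ± 208 normalized counts in R1, 4114 ± 324 in R2 and 87.4 ± 7.02 in parental cells (log2 differences 4.39 ± 0.13 SE, adjusted p = 5.4e-10 and 5.54 ± 0.13 SE, adjusted p = 1.0e-10), and it rose with treatment in parental cells (2.44 ± 0.10 SE, adjusted p = 5.2e-12). KREMEN2, a co-receptor for DKK proteins, was lower in R2 (-4.53 ± 0.38 SE, adjusted p = 1.4e-06), as was ROR2, a WNT5A receptor (-2.58 ± 0.33 SE, adjusted p = 4.6e-05). In the planar polarity list 3 of 8 were higher and 1 lower in R1, and 5 higher and 1 lower in R2, beside the same shares. PRICKLE2 led that list, with 18.3 ± 6.28 normalized counts in R1, 875 ± 272 in R2 and 0.361 ± 0.625 in parental cells.

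Among the 12 genes of Dishevelled and the destruction complex, 4 were higher and 2 lower in R1, 5 were higher and 2 lower in R2, and 3 rose and 4 fell with treatment in parental cells. The 6, 7 and 7 of 12 called stand beside 55.9%, 61.9% and 65.3% of all genes, close to or below those shares. AXIN1, the constitutive scaffold, was lower in R1 (-0.75 ± 0.16 SE, adjusted p = 0.00175) and R2 (-1.21 ± 0.16 SE, adjusted p = 4.6e-05). Among the 10 genes for beta-catenin and its nuclear partners, 3 were higher and 5 lower in R1, 3 higher and 1 lower in R2, and 3 rose and 2 fell with treatment in parental cells, beside the same shares. TCF7L1 was higher in R1 (2.16 ± 0.20 SE, adjusted p = 5.2e-06) and R2 (3.77 ± 0.20 SE, adjusted p = 4.6e-08), LEF1 was higher in R1 (2.62 ± 0.24 SE, adjusted p = 4.4e-06), and TCF7 was lower in R1 (-1.80 ± 0.28 SE, adjusted p = 2.4e-04) and rose with treatment in parental cells (1.54 ± 0.21 SE, adjusted p = 6.0e-06).

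Of 15 commonly used targets of beta-catenin tested with DMSO, 7 were higher and 4 lower in R1, and 6 were higher and 1 lower in R2, with list medians of 0.15 and 0.43, beside 55.9% and 61.9% of all genes called. In parental cells 7 of 13 rose with treatment and 1 fell, beside 32.1% of all genes higher and 33.2% lower (65.3% called). The members moved apart. JUN (3.02 ± 0.20 SE, adjusted p = 2.0e-07) and SP5 (3.61 ± 0.60 SE, adjusted p = 2.8e-04) were higher in R2, and CD44 was higher in R1 (1.84 ± 0.11 SE, adjusted p = 1.9e-07). LEF1, TCF7, RNF43, LGR5, ZNRF3 and NOTUM stand in 2 lists each.

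The summed levels of markers of other cell types were higher in treated parental libraries, in which antagonists rose, than with DMSO, in tables that had been normalized separately. The summed normalized counts of 7 fibroblast markers were 17626 to 18214 in treated parental libraries (6 markers restored) against 8082 to 10045.5 with DMSO, those of 6 immune markers were 4647 to 5394 (5 restored) against 178.6 to 405.7, and those of 6 endothelial markers were 973.2 to 1247 against 65.1 to 88.8. The fibroblast markers did not move one way, since of the 3 tested for the parental response THY1 rose (2.38 ± 0.05 SE, adjusted p = 1.4e-15), COL3A1 fell (-1.96 ± 0.16 SE, adjusted p = 1.9e-08) and PDGFRB was not called (-0.04 ± 0.14 SE, adjusted p = 0.824). In DMSO cells the fibroblast sum was 482.9 to 548.6 in R1, 3483 to 4481 in R2 and 8082 to 10045.5 in parental libraries. Of the immune markers CD14 made up most of the sum, averaging 4807 ± 397 treated and 312 ± 124 with DMSO in parental cells. The epithelial genes CDH1 and EPCAM, near 0 to 93.5 normalized counts with DMSO, averaged 1402 ± 14.8 and 1028 ± 113 in treated parental cells. The part of these genes' cell types in the member results was not tested.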

How the data were processed

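Poly(A) RNA libraries were made with a stranded kit, per the labels' protocols, and FastQC, MultiQC, STAR, featureCounts, DESeq2 and GRCh38 are named in the submitters' processing notes, without versions. The authors deposited normalized counts (counts divided by DESeq2 size factors, a signal that is not whole). In the treated table this signal had lost its decimal points, so its unit was recorded as other, and the design's assumption of ready normalized counts did not hold. A negative binomial model placed the points, and of 25152 genes at the filter 19411 (77.2%) were resolved; 5741 were left out, mostly low ones (42.6% resolved at levels under 30 and 96.0% from 1000). That model took each gene's DMSO levels as a guide. Without them 18148 of the resolved genes were also resolved, and 0 of these were placed otherwise. With the points of the DMSO table removed as a check, 12 of 16114 restored genes were wrong. This check ran without guiding levels, so it did not measure the error of the model as used. limma 3.58.1 (R 4.3.3, edgeR 4.0.16 for TMM) was fitted with a trend on log2(normalized count + 1) over the 9 libraries of a table, and for responses on log2(CPM + 1), CPM being computed from recovered reads of the deposited values over 18 libraries, with at least 10 in at least 3 libraries and p-values adjusted over all genes. Fits on the restored groups alone were added after the data were seen.

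The members and lists were chosen with earlier results of these data known. Per-library values are given for members called in at least 2 comparisons between populations or in the parental response, or averaging at least 1000 normalized counts in a group, and up to 4 called genes per pathway list and comparison. Replicate numbers did not pair the populations (correlations of deviations -0.28 to 0.38 with DMSO and -0.11 to 0.24 treated), but treated and DMSO libraries of the same number deviated together in R1 (0.38 to 0.86) and R2 (0.75 to 0.85), and not in all parental pairs (-0.22 to 0.46). Alternatives covered pseudocount, filter, scaling, test, posterior and left-out libraries. Symbols were found for 56948 of 58051 IDs. The fits were also run on counts simulated from the means and spread of these data, and the outcome is not reported here. Coordinates came from GENCODE v29 and promoters from RefSeq (GRCh38.p14).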

Additional observations from a re-analysis of the deposited data

Results flagged for a closer look

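Responses to ATRA plus decitabine that differed between populations, by limma's test of the difference itself on log2(CPM + 1), concerned 15 members. DKK1 differed most, by -4.06 in R1 and -2.99 in R2 relative to the parental response, and by -1.06 between R1 and R2. The ligands with smaller responses than in parental cells were WNT7B (-2.11 in R1 and -0.96 in R2, with -1.15 between R1 and R2), WNT9A (-1.78 in R1 and -1.73 in R2), WNT6 (-0.15 in R1 and -0.12 in R2, at few reads, its minimum having been reached mainly through treated parental libraries) and WNT4 (-1.11 in R2, with 0.91 between R1 and R2).

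WNT5A differed from the parental response by -0.84 in R2 and by 1.13 between R1 and R2, and WNT5B by 1.05 in R1, 0.32 in R2 and 0.74 between the resistant populations. Among receptors the differences from the parental response were 1.24 and 1.37 for FZD4 in R1 and R2, 0.80 and 0.92 for FZD6, -1.31 and -1.23 for FZD8, 0.79 in R1 for FZD5 and 0.48 in R2 for FZD3. The R2 difference of WNT5B was lost without R2 treated replicate 1 or DMSO replicate 3, or without parental treated replicate 2 or 3 or DMSO replicate 2 (adjusted p = 0.0514 to 0.0581), and that of FZD3 without R2 treated replicate 2 or 3 or DMSO replicate 1, or without parental treated replicate 1 or DMSO replicate 3 (0.0563 to 0.0741). FZD10 differed by -0.38 in R1, 0.29 in R2 and -0.68 between R1 and R2. The antagonist FRZB differed by -0.81 in R1 and -0.85 in R2, and AXIN2 by -1.41 in R1 and -1.74 in R2. R1 had at most 2 reads of FZD10 in any library, and log2(CPM + 1) weighs its low values lightly.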

How the results depend on the processing

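Of 6929 values of single members under an alternative, 6728 kept their direction and their side of the threshold, 113 were no longer called, 86 became called and 2 reversed. The reversed ones were the difference of the FZD10 response between R2 and parental cells, -0.17 with a pseudocount of 0.1 (adjusted p = 0.498) and -0.63 with edgeR (0.162) against 0.29 with limma at a pseudocount of 1, so its sign depends on the scale. Few reads limit the precision for WNT6, WNT8B, FZD10, SFRP1 and WIF1. A stricter posterior minimum left 14 members testable in the treated table. Of these, 8 were called between R1 and parental cells, 11 between R2 and parental cells and 10 between R1 and R2 cells. Fewer genes were tested there, and no share of all genes is given beside these counts. With the fits on restored populations the parental response called 25 of 35 members with either pseudocount. At a pseudocount of 1 this stood beside 69.7% of all genes called, and 8 of the 35 had passed through treated libraries alone. The R2 response called 1902 genes, or 2028 with a pseudocount of 0.1. With the replicate number as a block within populations, all-gene calls were 8583 for the R1 response, 6387 for the R2 response and 2763 for the difference between them (915 without the block). With it 20 members differed between the R1 and parental responses (12 without it) and 10 between the resistant responses (6 without it), beside 57.8% and 13.9% of all genes. edgeR called 588 genes for that last difference, and leaving out 1 library gave 609 to 1118, the lowest without R1 DMSO replicate 2. With the replicate number as a block in each table, a pairing the populations do not share, 23, 26 and 23 members were called with DMSO and 18, 22 and 20 treated (R1 against parental, R2 against parental, R1 against R2). In the same fits 53.5%, 59.8% and 50.4% of all genes were called with DMSO and 67.8%, 72.9% and 58.8% treated. The member counts do not set the members apart. Without the block the shares of all genes were 55.9%, 61.9% and 53.4% with DMSO and 67.2%, 72.5% and 58.3% treated. The cause of these changes was not tested.

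Calls on LRP6 also ended in R1 under the replicate block (adjusted p = 0.0537), and in R2 with the compared groups alone (0.0781), no filter (0.0529) or the replicate block (0.0668). The SFRP1 call in R1 with DMSO ended with a pseudocount of 5 (0.136), edgeR (0.0950) and DESeq2 (0.152). In treated R1 against parental cells FZD8 ended with TMM scaling (0.0957) and edgeR (0.0747), WNT8B with no filter (0.0523) and DESeq2 (0.0732) and FZD1 with no filter (0.0521). In treated R2 LRP5 ended with TMM (0.0565) and WNT6 with DESeq2 (0.0608). Among differences of responses, those of WNT5B and FZD3 between R2 and parental cells ended with DESeq2 size factors (0.114 and 0.0880), and edgeR ended those of WNT6 and FZD10 in R1 (0.0744 and 0.137).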
